A study of Drosophila melanogaster with 3 samples.

Results

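The long noncoding RNA (lncRNA) genes detected in adult *Drosophila* nephrocytes are described here. A gene was counted as detected if its symbol begins with lncRNA: and it reached at least 1 TPM (transcript per 1000000 transcripts) in each of 3 libraries. Of 1909 listed lncRNA genes, 96 (5.03%) met this rule. The same threshold was reached by 40.5% of all 17768 listed genes and by 49.8% of protein-coding genes. The members were chosen by their TPM values, so these levels are a description and no test was applied to them. The lncRNA: prefix is left out of the gene names below.

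Nephrocytes are large filtering cells that flank the fly heart, and they take up proteins from the hemolymph. They were dissected and sorted by flow cytometry as large cells positive for both fluorescent markers, from females aged 4 days. The flies carried *Hand*-GFP together with the *Klf15*-Gal4 driver, made with a promoter fragment of *Klf15*, and UAS-RFP over the balancer CyO, and all flies were kept at 25 °C on a normal diet with 6% sucrose. Each of the 3 replicates started from 200 flies and 100 to 200 nephrocytes. Every library belonged to this same control group, so no condition was compared. All 7 nephrocyte marker genes were detected, with a summed level of 10852 to 12170 TPM. The total expected counts were 8801238, 7808930 and 8797916. The RNA came from pools of cells, so fewer cells of a type and less RNA per cell cannot be told apart.

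Long noncoding RNAs are transcripts that do not encode a protein, and they act by several routes. Some hold proteins in nuclear bodies, some mark a chromosome for regulation, and some are precursors that release microRNAs or small nucleolar RNAs (snoRNAs). In flies, many have only an annotation number (CR) and no known role. Many also lie next to, inside or opposite protein-coding genes, where short reads do not always show which gene they came from.

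Most of the 96 genes were low. Their median level was 7.11 TPM, compared with 20.9 TPM over all 7193 detected genes. A mean of at least 100 TPM was reached by 8 genes, 29 lay between 10 and 100 TPM, and 59 lay below 10 TPM. The reads behind these levels were few. The median mean count was 30.5 expected counts, against 286 for detected coding genes, and 64 of the 96 had at least 10 counts in every library. In 13 genes some library held 3 counts or fewer.

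The detected lncRNAs were shorter than detected genes as a whole. Their median transcript length was 709 bases, against 1820 bases over all detected genes, and 30 of them (31.2%) were under 500 bases, against 3% of detected genes. Length affects the unit itself, because RSEM divides counts by an effective length, which is the length left after the fragment size is taken into account. In the shortest transcripts this is a small part of the full length, so a few reads become a high TPM.

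*CR34335* stood far above every other lncRNA. Its level was 54957, 69951 and 63991 TPM in libraries 1 to 3, from 16304, 20858 and 18446 expected counts. All libraries were high, and library 2 was the highest. The mean of 62967 ± 7549 TPM (SD, n = 3 libraries) gave it rank 2 among all genes. By CPM, its share of all expected counts, it ranked 41. Its transcripts average 250 bases, with an effective length of 39.1 bases. With the full length in the divisor its TPM was 13646 ± 1912 (SD, n = 3), which was rank 5. The gene lies on chromosome X, bases 3545750 to 3546110 on the minus strand, as a single exon within an intron of *DIP-alpha*, which encodes a neuronal cell surface protein. *DIP-alpha* itself was at 0.033 TPM. *CR34335* has no exon base in common with another annotated gene, and its expected counts were whole numbers.

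This gene decided the summed level of the group. The 96 lncRNAs together took 57802, 72710 and 67236 TPM, or 6.59% ± 0.75 of all TPM (SD, n = 3). *CR34335* supplied 95.5% ± 0.63 of that sum. Without it, the other members summed to 2845, 2759 and 3245 TPM, or 0.295% ± 0.026 of all TPM (SD, n = 3). By expected counts, all 96 took 0.572% ± 0.052 of the reads, and *CR34335* was 38.7% ± 8.2 of that share (SD, n = 3).

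**Figure D1:**
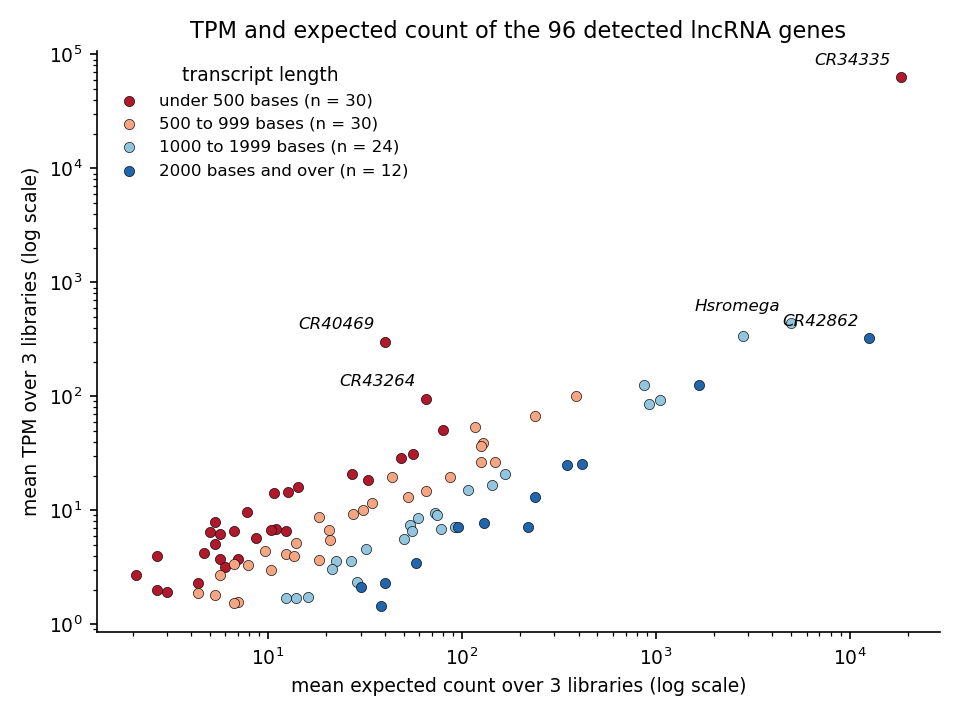
Mean TPM against mean expected count of the 96 detected lncRNA genes over 3 libraries, both on log scales, with each point coloured by transcript length. Genes under 500 bases lie above longer genes with the same count, and *CR40469* reaches 302 TPM from a mean of 40.3 counts.

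*Hsromega* was the next highest by TPM. It is the heat shock RNA omega gene, whose nuclear transcripts gather RNA-binding proteins of the hnRNP family into bodies called omega speckles. It was at 408, 434 and 465 TPM from 5106, 4459 and 5355 counts, a mean of 436 ± 28.2 TPM (SD, n = 3). The libraries were close to each other, with library 1 the lowest. Its transcripts average 1759 bases when weighted by their levels, while its exons cover 21710 bases. Shorter transcripts thus held most of this level, and the nuclear ones were not measured apart. The rank of the gene was 358 by TPM and 285 by CPM. The gene runs from base 21296127 to 21317836 on the plus strand of chromosome 3R. All 9 of the omega speckle proteins looked up were also detected. They included *Hrb98DE* at 146, 68.1 and 140 TPM, *sqd* at 95.1, 80.8 and 96.7 TPM, and *Saf-B* at 68.7, 41.1 and 86.2 TPM. For each of these 3 RNA-binding protein genes, library 2 was the lowest. For *Hsromega*, library 2 was in the middle by TPM but the lowest by expected counts. Its average transcript length was 1893, 1610 and 1773 bases in libraries 1 to 3, so this order depends on the unit.

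Another gene linked to heat shock came next. The *alphagamma-element* transcript *CR32865* comes from repeated sequence at a heat shock locus on 3R, bases 12475336 to 12478267 on the minus strand. It was at 307, 378 and 324 TPM from 2591, 3168 and 2715 counts. Library 2 was the highest, and the mean was 336 ± 37.4 TPM (SD, n = 3). Its nearest annotated coding gene was the heat shock gene *Hsp70Ba*, 7560 bases away, at 27.1 TPM. The element occurs in several copies, so reads of near-identical copies make this level uncertain, although its expected counts were whole numbers.

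*CR42862*, a transcript of 5468 bases on 3L, was almost equal to these by TPM and well above them by reads. It had 12533, 6563 and 18901 counts, which gave 317, 167 and 480 TPM. Library 3 was the highest and library 2 the lowest, with a mean of 321 ± 156 TPM (SD, n = 3). It ranked 73 among all genes by CPM and 460 by TPM. It has 246 exon bases in common with *CG33229* on the same strand, which is 4.5% of its exon sequence. *CG33229* was at 58.1, 64.5 and 63.7 TPM and did not vary in this way.

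*CR40469* showed the opposite case. It was at 267, 257 and 382 TPM, the fifth level among the lncRNAs, from only 36, 35 and 50 counts. Its transcript has 214 bases and an effective length of 17.8 bases. With the full length as divisor its TPM was 34.6 ± 7.2 (SD, n = 3). Its rank among all genes was 483 by TPM, 2909 by the full length and 6536 by CPM. *CR43264*, a transcript of 318 bases, likewise reached 58.0, 142 and 84.5 TPM from 40, 98 and 57 counts. Both are on chromosome X, at bases 122493 to 122706 and 5831898 to 5832215.

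Across the 96 genes, the orders by mean TPM and mean CPM had a Spearman's rho of 0.749, which is across genes that share libraries. Of the 15 highest by TPM, 10 were also among the 15 highest by CPM. The 10 highest by count were *CR34335*, *CR42862*, *Hsromega*, *alphagamma-element*, *CR45018*, *CR42549*, *CR32194*, *CR44133*, *CR31781* and *CR42491*. The lowest of them had a mean of 386 counts. *CR34335* was the only 1 of these 10 under 500 bases.

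**Figure D2:**
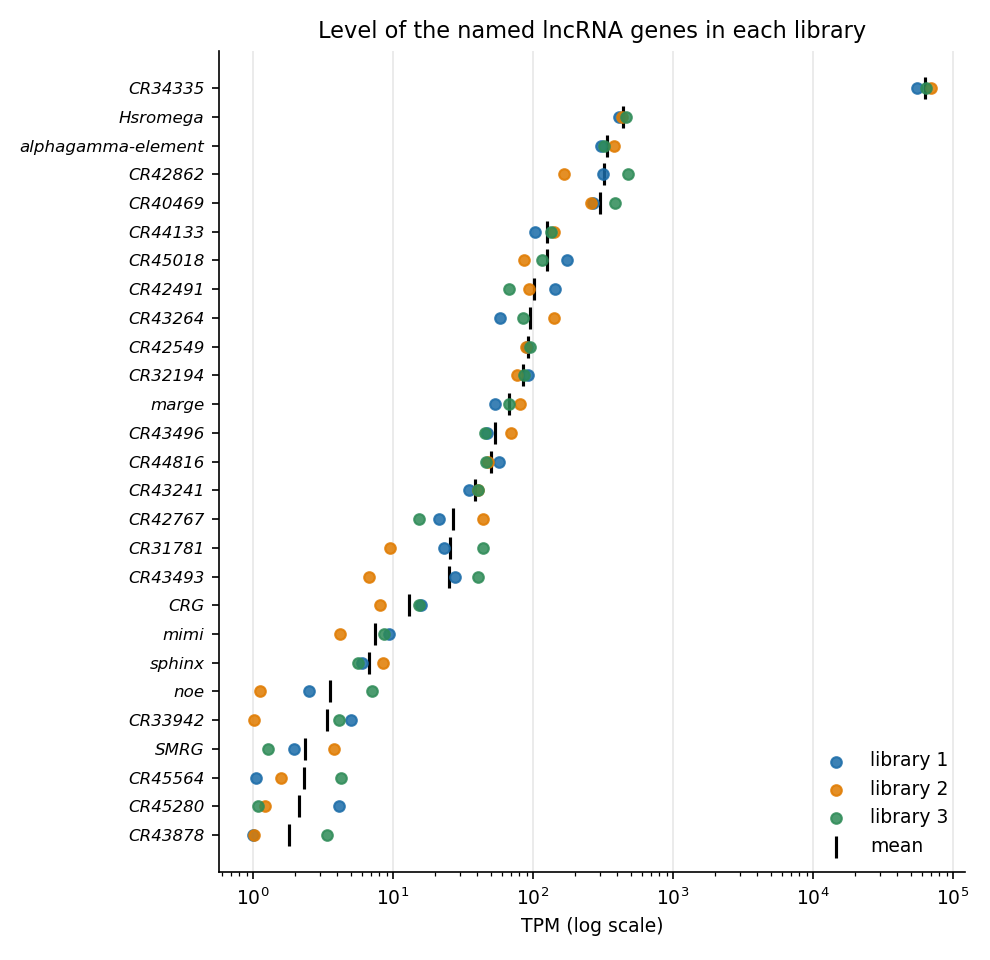
TPM of the named lncRNA genes in each of 3 libraries on a log scale, with the mean as a black bar. *CR34335* lies far above all others, and *noe*, *CR43493* and *CR33942* are among those whose libraries lie far apart.

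Most lncRNA genes with a given name were not detected. Of 36 listed genes whose name holds no CR number, 7 were detected, 22 had 0 counts in every library, and 7 had some counts below the threshold. The share detected was still higher than the 5.03% of all 1909 listed lncRNA genes. All 14 listed genes of the TS series were among those with 0 counts. *marge* was the highest after *Hsromega*, at 53.4, 80.9 and 67.9 TPM from 191, 285 and 243 counts. *CRG*, which regulates the scaffold protein gene *CASK*, was at 15.9, 8.01 and 15.3 TPM. *mimi* was at 9.42, 4.17 and 8.62 TPM. *sphinx*, a gene derived from a retroposed copy of an ATP synthase gene and known from male courtship, was at 6.02, 8.54 and 5.60 TPM. Its counts of 22, 22.5 and 17.6 were uncertain, since they were not whole in libraries 2 and 3. Its sequence derives in part from another gene, and 39.5% of its exon bases lie opposite *fuss*. Which gene shares these reads was not tested. *noe* was at 2.53, 1.12 and 7.02 TPM, and *SMRG* was at 1.96, 3.81 and 1.28 TPM. These low genes had library values that differed by up to several fold.

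The RNAs of dosage compensation were near 0. *roX1* and *roX2* bind the male-specific lethal complex and coat the single male X chromosome, and they are normally silent in females. *roX1* had 0, 2 and 6 counts, or 0, 0.08 and 0.25 TPM. *roX2* had 0, 6 and 1 counts, or 0, 1.94 and 0.12 TPM. A count of 0 in library 1 allows up to 3 counts, which is 0.104 TPM for *roX1* and 0.806 TPM for *roX2*, for counting error only. All 9 protein genes looked up with these RNAs were detected, among them the sex determination genes *tra* and *tra2*. The female-specific regulator *Sxl* was at 60.5, 50.3 and 52.7 TPM, and *mle*, a helicase that remodels roX RNA, was at 15.4, 8.69 and 18.5 TPM. *msl-2*, whose protein is made only in males, was at 3.73, 2.57 and 7.0 TPM. Library 3 was the highest for *mle* and *msl-2* and library 2 the lowest, while *Sxl* was highest in library 1.

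The lncRNAs of the bithorax complex, which lie among the Hox genes that set segment identity, were also below the threshold. *bxd*, *iab4* and *iab8* had 0 to 4 counts in each library. Of the Hox genes beside them, *abd-A* was at 20.5, 10.6 and 28.3 TPM and *Ubx* was at 8.36, 9.63 and 6.17 TPM. Both were detected, while *Abd-B* at 0.90 TPM was not. *Antp*, a Hox gene outside this complex that was looked up with them, was at 0.15 TPM and was not detected either. *let7C*, the precursor of the let-7 microRNA cluster, and *flam*, a precursor of small RNAs that silence transposons in ovarian somatic cells, had 0 counts in every library.

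Of the detected genes, 6 hold an annotated microRNA or snoRNA on the same strand. The 7 snoRNA host genes looked up by name had no match among the symbols, so they were not assessed. *CR43459* contains *mir-277* and *mir-34*, which are expressed together as a cluster in flies, and it was at 6.30, 4.96 and 10.04 TPM from 285, 121 and 255 counts. *CR45920*, with *mir-316*, was at 8.97, 3.24 and 9.40 TPM. *Hsromega* contains *mir-4951* and *mimi* contains *mir-9381*. *CR45184* holds 5 snoRNA genes and *CR42491* holds *snoRNA:Psi18S-531*; snoRNAs guide chemical changes of ribosomal RNA. The small RNAs themselves had 0 counts and an effective length of 0, so these values describe only the host transcripts. Library 2 was the lowest for *mimi*, *CR45920* and *CR43459*, as it was for 3471 of all 7193 detected genes. The other 3 hosts differed from this by TPM, since *Hsromega* was lowest in library 1, *CR42491* was lowest in library 3 and *CR45184* was highest in library 2.

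The position of a lncRNA gene relative to other genes went with its detection. Of 1240 lncRNA genes clear of any other gene, 39 (3.15%) were detected. Of 413 that lie within another gene without an exon base in common, 17 (4.12%) were detected. The share was 10.7% (19 of 177) for those with exon bases opposite an exon of another gene, and 26.6% (21 of 79) for those with exon bases in common on the same strand. Antisense RNA genes, which carry the symbol asRNA and nearly all lie opposite an exon, reached the threshold in 20% of cases (98 of 490). Genes that overlap another exon thus made up 13.4% of listed lncRNAs and 41.7% of the detected ones. MicroRNA, snoRNA and other small RNA genes were not counted as partners here. With them, 43 of the 96 had an exon base in common with another gene.

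**Figure D3:**
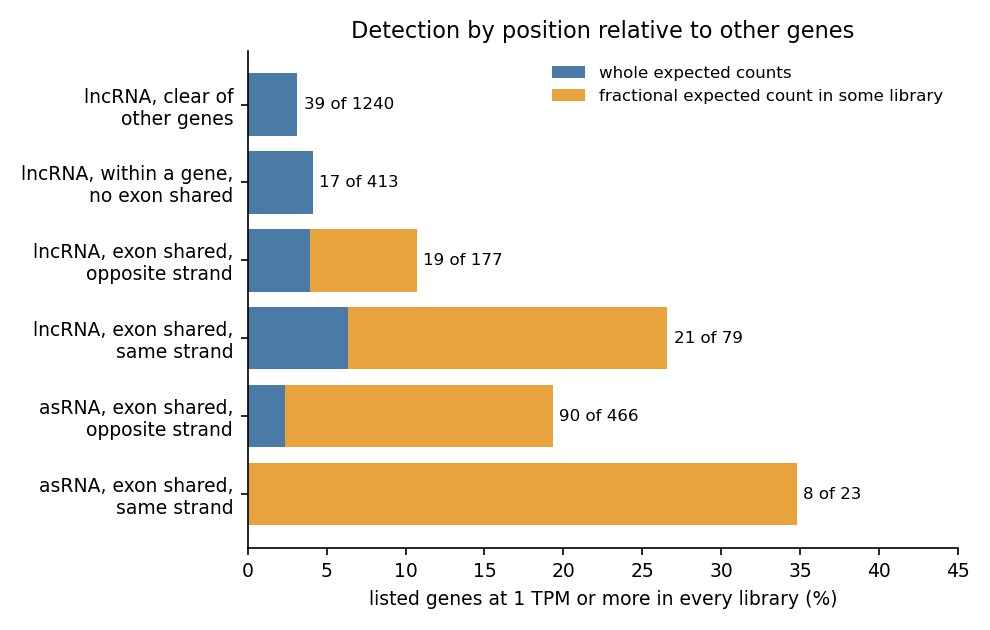
Share of listed lncRNA and asRNA genes with at least 1 TPM in every library (x axis, %), by position relative to other genes, with the part whose expected counts were fractional in some library in orange. Among lncRNAs the share goes from 3.15% for genes clear of other genes to 26.6% for genes with exon bases in common on the same strand, and fractional counts occur only in the overlapping classes.

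In overlapping genes the counts were often divided. RSEM assigns a read that matches several genes in parts, which leaves a fractional expected count, defined here as over 0.005 from a whole number. Such counts occurred in 28 of the 40 detected lncRNAs with exon bases in common with another gene and in 0 of the other 56. Over all detected genes the share was 18.6%. Fractional counts also occurred in 12 of the 19 lncRNAs whose overlap was only on the opposite strand. Whether the counting used strand is not given in the sources used here, so reads of the 2 strands may not have been told apart in these genes.

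For 7 of the 96, all exon bases also belong to another gene. In 6 of them that gene is a coding gene, and *CR45550* lies opposite another lncRNA gene, *CR45551*. *CRG* lies in *CASK* on the same strand, and *CASK* was at 101, 42.0 and 95.0 TPM. *CRG* had the same order of libraries, at a level well below it. *SMRG* lies in *Tis11*, which encodes an mRNA decay factor, at 36.0, 28.8 and 34.6 TPM. *SMRG* was highest in library 2, where *Tis11* was lowest. *CR45197* lies in *sgg*, the fly glycogen synthase kinase 3. It was at 23.4, 33.7 and 21.8 TPM while *sgg* was at 39.8, 20.9 and 40.1 TPM, so library 2 was the highest for the lncRNA and the lowest for the kinase gene.

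Of the 8 lncRNAs with means of at least 100 TPM, 3 overlap a coding gene on the same strand over 35.8% to 81.4% of their exon bases. *CR44133*, of whose exon bases 81.4% are in the GATA factor gene *srp*, was at 103, 142 and 134 TPM, and *srp* was at 150, 55.5 and 158 TPM. Library 2 was thus the highest for *CR44133* and the lowest for *srp*. Blood cells also express *srp*. Of 10 hemocyte genes, 3 were detected, which were *srp* itself, *crq* at 401, 327 and 327 TPM and *He* at 11.6, 4.31 and 4.03 TPM. *Hml*, *Pxn*, *PPO1* and *NimC1* had means below 1 TPM, and *eater*, *lz* and *PPO2* were at 0. The summed level of 564, 388 and 489 TPM was thus mostly *crq* and *srp*, and the part of blood cell RNA in this pair was not tested. *CR45018* was at 174, 86.4 and 115.2 TPM beside *IP3K2*, an inositol trisphosphate kinase gene, at 184, 69.5 and 85.4 TPM. This pair had the same order of libraries. *CR42491* was at 142, 93.8 and 67.8 TPM beside the ribosomal protein gene *RpL22* at 1442, 980 and 1388 TPM, with 50.5% of its exon bases in that gene. Library 3 was the lowest only for the lncRNA of this pair.

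In all, 32 detected lncRNAs had exon bases in common with a coding gene, 20 on the same strand and 12 on the opposite strand only. The lncRNA was below its coding partner in 23 pairs and above it in 9. The median was 7.46 TPM over the lncRNAs and 33.4 TPM over the partners. Without regard to overlap, the medians were 7.11 TPM over all detected lncRNAs and 22.1 TPM over all detected coding genes. On the opposite strand, *CR44816* was at 57.3, 47.5 and 45.8 TPM, with 77.3% of its exon bases opposite the mitofusin gene *Marf*. *CR44060* was at 29.5, 11.7 and 45.8 TPM, with 80.1% opposite *drongo*. Of the 9 above their partner, *CR42862* was the highest, as given above. *CR42549* was at 91.2, 89.5 and 95.9 TPM beside *mura* at a mean of 19.4 TPM, with whole counts and only 97 bases in common. *sphinx* and *CR44779*, at means of 6.72 and 4.15 TPM, lay opposite *fuss* and *CG3655*, which were both below 1 TPM.

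**Figure D4:**
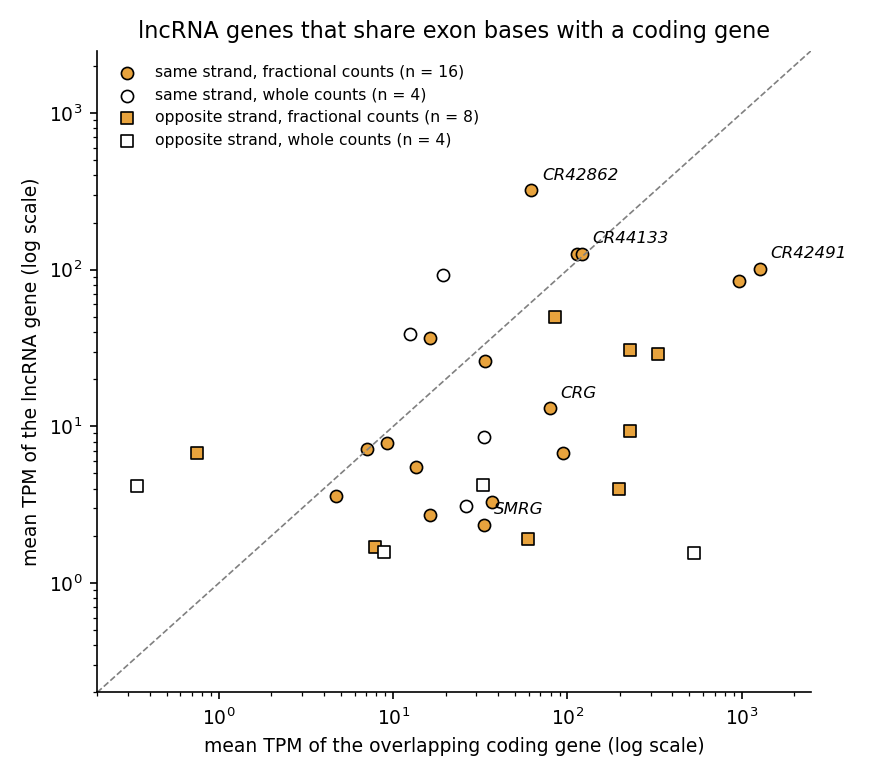
Mean TPM of 32 detected lncRNA genes (y axis) against that of the coding gene with which they have most exon bases in common (x axis), both on log scales, by strand and by whether the lncRNA's expected counts were fractional. Points under the dashed line of equal level are the 23 lncRNAs below their partner, and *CR42862* lies well above the line.

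Detected lncRNAs that overlapped no gene lay near expressed genes. Of the 39 clear of other genes, 38 had a nearest coding gene with a level, and that gene reached a mean of 1 TPM in 30 of them (78.9%). For undetected lncRNAs clear of other genes the share was 31.3%. The median distance to the nearest coding gene was 487 bases for the detected and 2201 bases for the undetected. Of the 56 detected lncRNAs without a common exon base, 11 (19.6%) began within 1000 bases past the 3′ end of a coding gene on the same strand, against 7.08% of 1597 undetected ones. That coding gene was at 10 TPM or more in 8 of the 11, and in 22 of the 113 undetected ones in this position.

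*CR42767* was the highest of these 11. It starts 199 bases past *Cubn*, which encodes the cubilin protein uptake receptor, on the minus strand of chromosome X. It was at 21.2, 43.7 and 15.4 TPM, and *Cubn* was at 527, 679 and 510 TPM. Both genes were highest in library 2 and lowest in library 3. *CR42874* starts 510 bases past the sterol transport gene *Npc2a* and was at 20.1, 12.6 and 17.7 TPM, while *Npc2a* was at 350, 318 and 244 TPM. *CR45380*, *CR45635* and *CR44708* had means below 10 TPM although the genes before them, *Gtpx*, *CG5399* and *CG7378*, had means above 100 TPM. *mimi*, *CR45517* and *CR43685* were instead higher than the coding genes before them. *CR43685* was at 13.1, 17.6 and 14.4 TPM beside the chromatin protein gene *Alh* at 3.94, 1.93 and 6.13 TPM.

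By chromosome, detected lncRNAs were most frequent on the X among the large arms. There, 26 of 235 listed lncRNA genes (11.1%) were detected, against 2.51% on 2L, 3.52% on 2R, 4.78% on 3L and 5.71% on 3R. Coding genes ranged only from 46.6% to 51.8% over these arms. Among lncRNA genes without a common exon base the X share was 14 of 191 (7.33%), and the other large arms lay between 1.53% and 4.31%. The X members included *CR34335*, *CR40469*, *CR45018*, *CR42491* and *CR43264*, 5 of the 9 highest lncRNAs by mean TPM. By mean CPM these 5 ranked 1, 43, 5, 10 and 31 among the 96, in the same order. On the small chromosome 4, 2 of 13 were detected, including *sphinx*. Single-exon genes were 57.3% of the detected and 69.2% of the other listed lncRNAs.

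The libraries differed more for lncRNAs than for genes as a whole. The median SD of log2(TPM + 1) over 3 libraries was 0.41 for the 96 lncRNAs and 0.26 for all detected genes. For those with at least 50 counts in every library it was 0.32 over 32 lncRNAs and 0.24 over 5899 genes. The median coefficient of variation was 32.1%, while the counting error alone for the same counts had a median of 18.1%. For all detected genes these medians were 19.3% and 6.10%, so the sets were not matched for counts. With at least 50 counts in every library, the median counting error was 8.29% for lncRNAs and 5.11% for all genes. In 22 of the 96 (the background over all detected genes being 11.6%) the spread was no wider than the counting error.

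Muscle genes also differed between these libraries. Of 14 muscle and heart genes, 12 were detected, with summed levels of 5995, 3156 and 10261 TPM in libraries 1 to 3, and the flight muscle gene *fln* was at 0. In 10 of the 14, library 2 was the lowest and library 3 the highest. Over all genes with 50 counts or more throughout, this order was found in 34.5%, and in 6 of the 32 lncRNAs with such counts. These 6 were *CR30055*, *CR31781*, *CR42549*, *CR42862*, *CR43459* and *CR43493*. Among them, *CR42549* and *CR30055* varied little, with coefficients of variation of 3.59% and 10.4% against counting errors of 3.09% and 7.75%. The part of muscle RNA in the differences of the 6 was not tested.

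*CR43493* had the widest range. It was at 27.9, 6.71 and 40.5 TPM from 390, 93 and 563 counts, so library 2 was far below both others. *CR31781* was at 23.2, 9.48 and 44.0 TPM from 377, 155 and 716 counts, with the same order. Against the average of the other libraries on the log2(TPM + 1) scale, library 2 was at −2.17 for *CR43493*, −1.65 for *CR31781* and −1.21 for *CR42862*. These were the 3 of 32 lncRNAs at least 2-fold lower there, where the background was 8.68% of genes. *CR42767* was the only such lncRNA at least 2-fold higher in library 2, by 1.23 on that scale, where the background was 0.102%. *CR42491* was highest in library 1 and in library 2 lay near the average of the others.

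**Figure D5:**
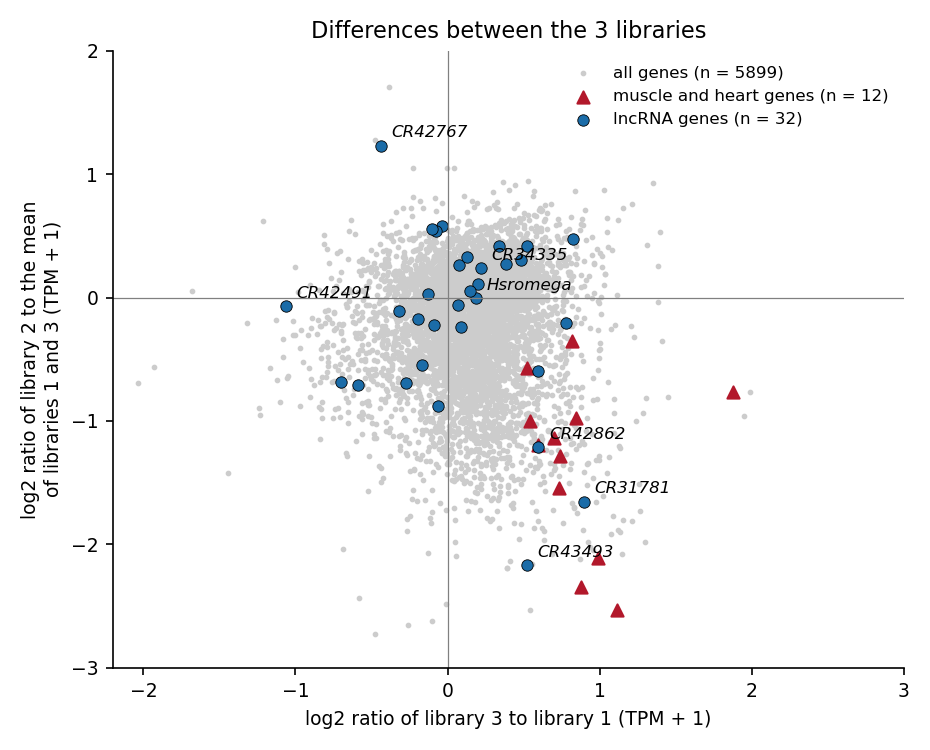
Log2 difference of library 2 from the average of the other libraries (y axis) against that between libraries 3 and 1 (x axis), both of TPM + 1, for genes that had 50 counts or more throughout: 5899 genes in grey, 32 lncRNAs in blue and 12 muscle and heart genes in red. *CR43493*, *CR31781* and *CR42862* lie at the lower right with most muscle genes and *CR42767* lies at the top, and 3 grey genes fall outside the axes.

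The threshold cut through genes with very few reads. Just inside it were *CR43878* at 1.00, 1.01 and 3.39 TPM from 3, 3 and 10 counts, and *CR33942* at 5.02, 1.01 and 4.08 TPM from 10, 2 and 8 counts. *CR45564*, *CR45280* and *CR43785* had lowest values of 1.05, 1.08 and 1.12 TPM, and *noe* was level with the last of these. Just outside was *CR44544* at 0.99, 1.00 and 1.01 TPM from 2 counts in each library. *CR43654* had 34, 23 and 45 counts and still missed it, at 0.96 TPM in library 2, because its transcript has 3445 bases. *CR44651*, *CR43910* and *CR45979* had lowest values of 0.93, 0.92 and 0.91 TPM. In all, 88 lncRNAs reached 1 TPM in some but not all libraries, and 1511 had no count at all.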

How the data were processed

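RNA of sorted nephrocytes was amplified with a low-input cDNA kit and sequenced in 3 libraries of 1 control group. Per the paper's methods, the authors aligned reads with STAR 2.7.5c and estimated levels with RSEM 1.3.3 on FlyBase annotation 6.28. The strand setting is not stated in those methods. Expected counts, as deposited, are estimated reads per gene without normalization and need not be whole. TPM as deposited divides them by effective length and sums to 1000000 per library. The deposited FPKM values, also from RSEM, served as an alternative unit. The replicates are separate collections of flies, so the spread includes dissection, sorting and amplification.

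Symbols were matched for 17671 of 17768 IDs. Coordinates are from BDGP6.54 (Ensembl release 115), on the same Release 6 assembly, and 95 of the 96 genes had the same transcripts in the files and in that annotation. Exon bases common to 2 genes were counted over merged exons on either strand, without transposable elements. CPM was computed from expected counts. Procedures were tested on simulated data. No test between groups could be run. Neither lncRNA nor promoter sequences were used here.

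The members and gene lists were chosen with earlier results of these data known. Named genes were those with a name other than a CR number, the 15 highest by TPM, the 10 highest by count, the 5 with the widest range at 50 or more counts, 5 on each side of the threshold, members of the lists, and neighbours of these. Other genes that overlap or follow a gene, and the microRNA hosts, were named after their values were seen. Some list entries had no match and are left out. Marker lists other than nephrocyte and muscle had few detected genes: hemocyte 3 of 10, fat body 1 of 10, ovary 2 of 7, neuron and glia 1 of 7, midgut 2 of 6 and testis 1 of 6. In the same order, their mean summed levels were 480, 110, 200, 93.1, 4.66 and 2.18 TPM. The detected fat body gene, *Obp99b*, was at 8.73, 12.8 and 299 TPM in libraries 1 to 3. Alternatives were other thresholds and units, TMM (edgeR 4.0.16) and DESeq2 1.42.0 scaling of expected counts rounded to whole numbers, TPM without mitochondrial and ribosomal RNA genes, and each replicate left out. Python 3.11.15, pandas 2.3.3 and R 4.3.3 were used.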

Additional observations from a re-analysis of the deposited data

Results flagged for a closer look

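Antisense RNA genes, which the described set does not include, also gave a signal: 98 of 490 listed asRNA genes reached 1 TPM in every library, with a summed level of 847, 821 and 908 TPM, and 133 had over 3 counts in every library, the limit that a count of 0 allows. Of the 98, 87 had fractional expected counts, and 90 lie opposite an exon of another gene. There were no control samples of another kind to set this against, and strand use in counting is not given, so it was not tested whether these reads came from the antisense strand.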

How the results depend on the processing

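The number of detected lncRNA genes was 96 at 1 TPM in every library, 51 at 5 TPM and 30 at 10 TPM, and 194 with asRNA genes added. It ranged from 103 to 110 without replicate 1, 2 or 3. The summed level of 65916 TPM was 5724 as CPM, 77143 with TPM rescaled without mitochondrial and ribosomal RNA genes, and, chosen after seeing the data, 16447 TPM with the full length and 2949 TPM without *CR34335*. Leaving out a replicate gave 62551 to 69992 TPM. The number with an exon base in common with another gene was 43, and 17 when at least 50% of the exon bases had to be common. The median SD of log2(TPM + 1) was 0.41, and it was 0.49 with a pseudocount of 0.1, 0.31 with at least 10 counts and 0.32 with at least 50, and 0.26 to 0.36 with a replicate left out. The median over the named members of their mean level was 50.2 TPM, 46.6 TPM by the median library, 46.1 to 52.4 TPM with a replicate left out and 58.8 TPM after rescaling. The median log2 ratio of library 2 to the others was −0.17, and −0.19 to −0.0022 under the other pseudocount, the other scalings and a count minimum, so its size depends on the scaling. The share of X-linked lncRNA genes detected was 11.1%, against 4.18% of the others, and with at least 10 counts in every library these were 8.09% and 2.69%. No paired analysis was possible because the series holds 1 group. Depth limits low members most, since 32 of the 96 had under 10 counts in some library.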
